A study of Mus musculus with 12 samples.

Results

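A set of 6 X-linked cancer-testis genes, Magea5, Mageb4, Pnma5, Fmr1nb, Usp26 and Nxf3, was described in stable lines of mouse embryonic stem cells. They were taken by symbol from the 23354 genes with a value in all 12 libraries, and all 6 were found. Cells of the J1 strain were grown on fibroblast feeders with serum and leukemia inhibitory factor, and mRNA was sequenced from 2 libraries in each of 6 groups. The overexpression arm held H3.1K36M, in which lysine 36 of histone H3.1 is replaced by methionine, H3.1K9M, with the same change at lysine 9, and wild-type H3.1 (H3.1WT). The knockdown arm held hairpins against Suv39h1 (shSuv39h1) and Suv39h2 (shSuv39h2), a pair of H3K9 methyltransferases, and the hairpin shNC, read here as the control hairpin. Whether a line is 1 clone, what promoter drives a transgene and whether the libraries of a group are separate cultures are not stated in the labels, so p-values measure only the spread between these libraries.

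Cancer-testis genes are active mainly in germ cells, are silent in most somatic tissues and are often switched on in tumours. Many lie on chromosome X and belong to families that grew by gene duplication. In somatic cells their promoters are commonly kept silent by DNA methylation and by repressive histone marks such as H3K9 methylation. Magea5 and Mageb4 are type I MAGE genes, a family whose proteins bind RING-type ubiquitin ligases. Pnma5 belongs to the PNMA family, which derives from the Gag protein of a retrotransposon. Fmr1nb encodes a testis membrane protein known as the tumour antigen NY-SAR-35, and takes its name from its neighbour Fmr1. Usp26 encodes a deubiquitinase of the testis. Nxf3 belongs to the family of the mRNA export factor Nxf1.

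The 6 genes were chosen by their FPKM values in these libraries, across all 6 groups. Their levels and differences are therefore given as a description, with counts of calls and no p-value, and support nothing by themselves. On GRCm38, the build named mm10 in the submitters' processing notes, GENCODE M21 places all of them on chromosome X as protein-coding genes. In order along the chromosome these were Usp26 at 51753959 to 51801233, Fmr1nb at 68761839 to 68804567, Pnma5 at 73033981 to 73037103, Mageb4 at 86250254 to 86305093, Nxf3 at 136072099 to 136085255 and Magea5 at 155053061 to 155063145. Fmr1nb is on the plus strand and the other 5 are on the minus strand.

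The promoters of 4 of the genes are shown with their content of CpG, the substrate of DNA methylation, which differed widely. All 4 genes were lower with the Suv39h2 hairpin, Magea5 without a call. DNA methylation is not measured by these libraries, and the part of CpG content in the differences was not tested. The windows are from RefSeq on GRCm38.p6, cover 250 bases before to 50 bases after the annotated start, read 5′ to 3′ on the gene's strand, and carry each CpG in capitals.
Magea5, chrX:155061504-155061803, minus strand: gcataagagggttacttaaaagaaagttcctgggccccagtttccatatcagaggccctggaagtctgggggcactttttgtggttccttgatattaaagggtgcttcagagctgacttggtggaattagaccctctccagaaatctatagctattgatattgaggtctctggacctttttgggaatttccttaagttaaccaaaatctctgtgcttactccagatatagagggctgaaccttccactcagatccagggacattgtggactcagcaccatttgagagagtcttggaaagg
Mageb4, chrX:86256170-86256469, minus strand: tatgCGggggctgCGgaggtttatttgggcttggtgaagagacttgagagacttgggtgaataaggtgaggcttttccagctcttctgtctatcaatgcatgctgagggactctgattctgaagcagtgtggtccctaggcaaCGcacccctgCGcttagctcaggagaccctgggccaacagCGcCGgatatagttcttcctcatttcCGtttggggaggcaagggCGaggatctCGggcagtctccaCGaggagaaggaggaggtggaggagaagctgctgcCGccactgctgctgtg
Pnma5, chrX:73037054-73037353, minus strand: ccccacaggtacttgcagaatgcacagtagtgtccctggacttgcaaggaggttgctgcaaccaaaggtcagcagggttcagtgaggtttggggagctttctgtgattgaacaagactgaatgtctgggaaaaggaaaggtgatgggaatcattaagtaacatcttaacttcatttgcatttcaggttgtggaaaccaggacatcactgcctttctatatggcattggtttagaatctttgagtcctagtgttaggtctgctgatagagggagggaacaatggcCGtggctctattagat
Fmr1nb, chrX:68761589-68761888, plus strand: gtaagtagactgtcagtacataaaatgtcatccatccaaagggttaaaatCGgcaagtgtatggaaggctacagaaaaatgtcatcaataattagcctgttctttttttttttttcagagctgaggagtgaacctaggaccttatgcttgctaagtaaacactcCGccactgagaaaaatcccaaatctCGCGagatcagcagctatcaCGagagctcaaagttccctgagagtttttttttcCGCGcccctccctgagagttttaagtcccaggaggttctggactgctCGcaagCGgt

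RefSeq gave a window for 5 of the 6 genes, and Nxf3 had none. The starts used for Magea5 and Mageb4 lie inside the spans that GENCODE gives, so these windows show 1 annotated start of each gene. The Magea5 window held 0 CpG, the Pnma5 window 1, the Usp26 window 5, the Fmr1nb window 9 and the Mageb4 window 11. Over 32851 mouse promoter windows of the same length the median was 7, with quartiles at 3 and 20. Pnma5 and Fmr1nb stood at 0.07 and 0.62 in CpG observed over expected. The E-box CACGTG and the E2F-type motif GCGGGAA, each searched on both strands, were in none of the 5 windows, and were in 7.2% and 4.6% of all windows. CCAAT, searched on both strands, was found once in the Pnma5 window and 2 times in the Usp26 window, against a share of 37.4% of all windows with at least 1.

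Depth was approximated from the low values at 21200000 to 27550000 fragments per library. Between 12126 and 12518 genes reached 1 FPKM, fragments scaled to depth and to transcript length, a level per transcript length. The hairpins were read from their targets. Suv39h2 stood at 1.61 and 1.76 FPKM in shSuv39h2, against 4.80 and 4.78 FPKM in shNC, which is 35.1% of the control mean (limma adjusted p = 0.000304). Suv39h1 had a mean of 5.01 FPKM in shSuv39h1 and 8.05 FPKM in shNC, or 62.2%, and did not pass (limma adjusted p = 0.0877). Suv39h1 was also lower in H3.1K36M, with a mean of 7.25 FPKM, than in H3.1WT, with 11.3 FPKM (limma adjusted p = 0.0163). The overexpressed histones were not checked here. The 8 embryonic stem cell markers were all present, at 3160 to 5160 FPKM summed per library, and the 2 libraries of H3.1K9M differed more from each other than those of any other group (SD 0.41 of the log2 difference over genes, against 0.223 to 0.345).

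With the Suv39h2 hairpin all 6 genes were lower than in shNC, with no overlap between the libraries, by a log2 difference with a median of -1.40. Calls were made by limma on log2(FPKM + 1) over 13109 genes, with an adjusted p under 0.05. Of the 6 genes 5 were called lower, where 4.69% of all tested genes were called lower and 10.0% in either direction. The shSuv39h2 libraries lay wholly below the shNC libraries in 21.3% of tested genes and wholly above them in 29.5%. The gene not called was Magea5. Without shSuv39h2 replicate 1 the number called was 3. All 6 passed the filter of 1 FPKM in 2 libraries, Magea5 only through its H3.1K36M libraries and so only because it was high there. With 0.1 FPKM added in place of 1 all 6 were called lower, and likewise without the filter.

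**Figure D1:**
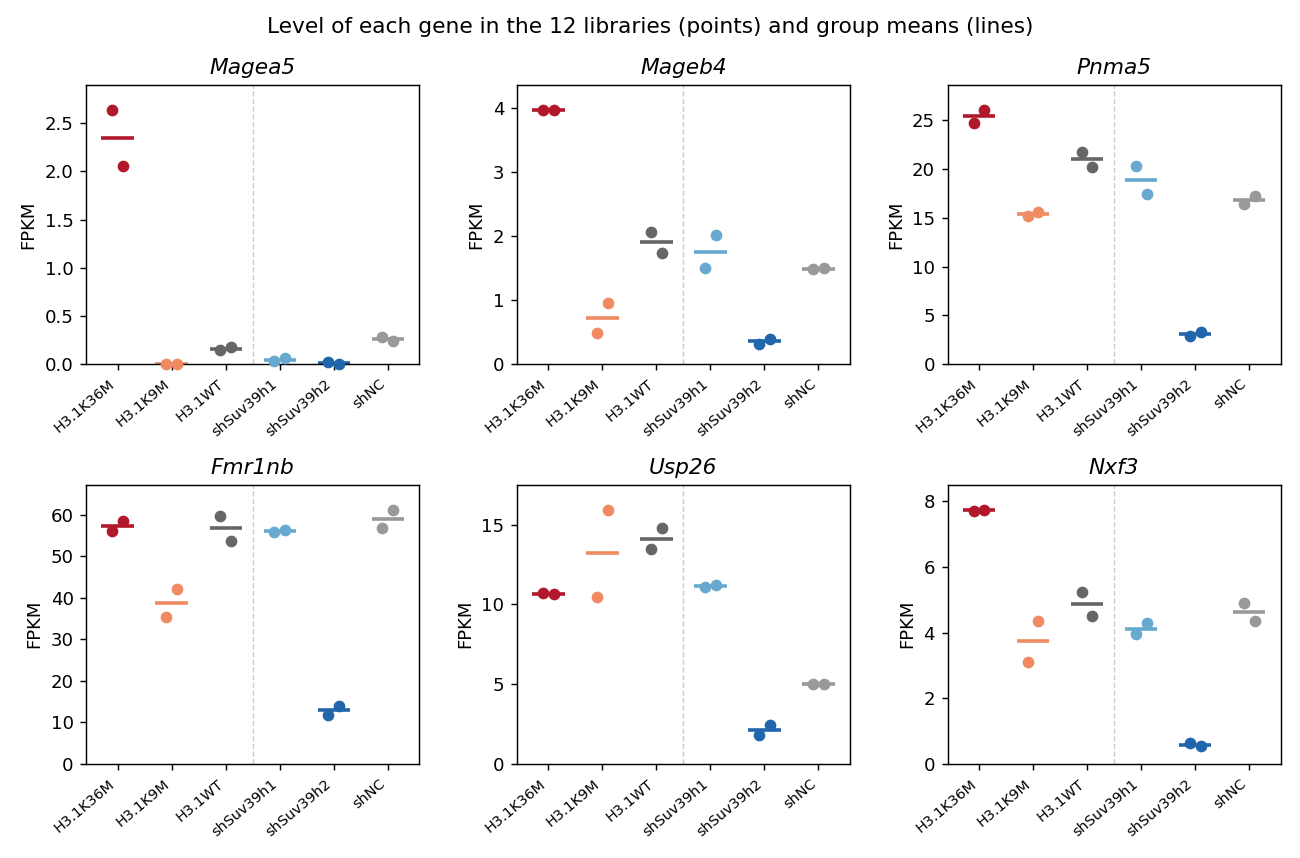
Level in FPKM on the vertical axis, from 0, for each of the 6 genes in each of the 12 libraries (points) with the group mean (line); groups run along the horizontal axis, with the arms divided by a dashed line. The shSuv39h2 points are below the shNC points in every panel, and the H3.1K36M points are the highest for Magea5, Mageb4, Pnma5 and Nxf3.

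Fmr1nb was the most abundant of the 6 genes per length in every library. It stood at 11.8 and 14.01 FPKM in shSuv39h2, against 56.9 and 61.1 FPKM in shNC. Both knockdown libraries were far below both controls, at 21.9% of the control mean, a log2 difference of -2.11 (SE 0.106). It stood at 55.9 and 56.2 FPKM in shSuv39h1, 56.1 and 58.5 in H3.1K36M and 59.6 and 53.7 in H3.1WT. The shNC, H3.1K36M, H3.1WT and shSuv39h1 groups were neighbours in its order of levels and overlapped each other in that order. H3.1K9M, with 35.4 and 42.0 FPKM, stood below all 4 of these groups and above shSuv39h2.

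Pnma5 stood at 2.84 and 3.29 FPKM in shSuv39h2, against 16.4 and 17.2 FPKM in shNC. This was 18.2% of the control mean, a log2 difference of -2.13 (SE 0.097), next to the -2.11 of Fmr1nb.
In the remaining groups it stayed between 15.2 and 26.0 FPKM. H3.1K36M was highest with 24.8 and 26.0 FPKM, H3.1K9M had 15.2 and 15.6, and H3.1WT had 21.8 and 20.2. The shSuv39h1 libraries, at 20.3 and 17.4 FPKM, overlapped those of H3.1WT in the order of levels.

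Nxf3 had the lowest share of its control level among the 5 called genes. It stood at 0.634 and 0.534 FPKM in shSuv39h2, against 4.90 and 4.36 FPKM in shNC, or 12.6%, with a log2 difference of -1.83 (SE 0.133). On the scale of log2(FPKM + 1) a fall to such low levels is understated. H3.1K36M was the highest group with 7.71 and 7.73 FPKM, apart from H3.1WT with 5.25 and 4.51 FPKM. The shSuv39h1 libraries had 3.96 and 4.28 FPKM and overlapped those of H3.1K9M, which had 3.11 and 4.35.

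Usp26 differed from the other genes in that its control hairpin libraries were low. It stood at 1.80 and 2.42 FPKM in shSuv39h2 and at 11.1 and 11.2 in shSuv39h1, against 5.008 and 5.008 in shNC. The shSuv39h2 mean was 42.2% of the shNC mean, a log2 difference of -0.96 (SE 0.163), and the shSuv39h1 mean was 2.22 times the shNC mean, a log2 difference of 1.01 (SE 0.163) that was not called. Both hairpin comparisons share the shNC libraries. In the overexpression arm Usp26 had 10.7 and 10.6 FPKM in H3.1K36M, 10.5 and 15.9 in H3.1K9M, and 13.5 and 14.8 in H3.1WT. Thus shNC was the lowest group after shSuv39h2, and the 4 other groups lay between 10.5 and 15.9 FPKM. Whether the arms were scaled to each other is not stated in the labels or file headers, so levels set across them are side by side only.

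Mageb4 stood at 0.310 and 0.398 FPKM in shSuv39h2, against 1.482 and 1.496 FPKM in shNC. That is 23.8% of the control mean, a log2 difference of -0.88 (SE 0.149), and in shSuv39h2 it rested on as few as about 18.6 fragments in a library. The shSuv39h1 libraries had 1.496 and 2.02 FPKM and lay just above those of shNC. Mageb4 was highest in H3.1K36M, with 3.961 FPKM in both libraries, against 2.07 and 1.74 FPKM in H3.1WT. It was lower in H3.1K9M, with 0.482 and 0.960 FPKM.

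Magea5 was near 0 in all groups but H3.1K36M, where it stood at 2.63 and 2.06 FPKM. With a length of 1.506 kb fitted to them, its 7 low values came within 0.038 of whole fragments, and this gave estimates of 97 and 73 fragments in H3.1K36M, 0 and 0 in H3.1K9M, and 5 and 6 in H3.1WT. In the knockdown arm there were 1 and 2 fragments in shSuv39h1, 1 and 0 in shSuv39h2, and 9 and 10 in shNC. The libraries of both hairpins against a methyltransferase were below those of shNC, and on so few fragments the log2 differences were small, at -0.27 (SE 0.115) for shSuv39h1 and -0.32 (SE 0.115) for shSuv39h2.

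In H3.1K36M against H3.1WT, Magea5, Mageb4 and Nxf3 were called higher, 3 of the 6 genes. Of all tested genes 3.1% were called higher and 4.84% in either direction. Magea5 was tested only because it was high in H3.1K36M, so its call is a description. The count that includes it is therefore not measured against these shares. The libraries did not overlap for 4 genes that were higher and 1 that was lower, as for 38.2% and 27.6% of tested genes. Magea5 was 14.8-fold higher, with a log2 difference of 1.52 (SE 0.115). Mageb4 was 2.08-fold higher, with 0.77 (SE 0.149), and Nxf3 1.58-fold higher, with 0.57 (SE 0.133). Pnma5 had a log2 difference of 0.26 (SE 0.097) and Fmr1nb of 0.02 (SE 0.106). Usp26 lay below H3.1WT, with -0.37 (SE 0.163). None of these 3 was called. The count of called genes was 1 without either of the H3.1WT libraries, 0 without either of the H3.1K36M libraries and 1 with a pseudocount of 0.1.

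In H3.1K9M no member was called against H3.1WT by limma, where 0.313% of tested genes were (0.0229% higher and 0.290% lower), and 4 of 6 had an unadjusted p under 0.05, as did 11.2% of all tested genes. The levels of 5 of the 6 genes were below H3.1WT without overlap, as were those of 20.6% of tested genes. Mageb4 had a log2 difference of -0.77 (SE 0.149), at 37.9% of the H3.1WT mean, and Magea5 was listed at 0 in both H3.1K9M libraries. Fmr1nb had -0.54 (SE 0.106), Pnma5 -0.42 (SE 0.097) and Nxf3 -0.32 (SE 0.133). Usp26 overlapped, with -0.12 (SE 0.163). Without H3.1K9M replicate 2, 3 members were called lower.

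Set directly against each other, H3.1K36M was above H3.1K9M for 5 of the 6 genes, which were all called. Of all tested genes 5.57% were called higher, 2.67% lower and 8.24% in either direction. Magea5, tested only because it was high in H3.1K36M, is among these 5 genes. Its call is a description, and the count is not measured against these shares. The same 5 did not overlap, as 31.5% of tested genes did not in this direction and 20.5% in the other. The log2 differences were 1.74 (SE 0.115) for Magea5, 1.54 (SE 0.149) for Mageb4, 0.90 (SE 0.133) for Nxf3, 0.69 (SE 0.097) for Pnma5 and 0.56 (SE 0.106) for Fmr1nb. Usp26 went the other way, with -0.25 (SE 0.163), and its libraries overlapped. This comparison shares libraries with both of the preceding ones. The number called higher was 3 without H3.1K36M replicate 1 and 2 without H3.1K36M replicate 2.

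With the Suv39h1 hairpin no member was called against shNC by limma, where 0.145% of tested genes were (0.0839% higher and 0.0610% lower), and 2 of 6 had an unadjusted p under 0.05, as did 10.6% of all tested genes. Mageb4 and Pnma5 had log2 differences of 0.14 (SE 0.149) and 0.15 (SE 0.097), and Fmr1nb and Nxf3 of -0.07 (SE 0.106) and -0.14 (SE 0.133). The libraries did not overlap for 3 genes that were higher and 3 that were lower, as for 26.8% and 12.7% of tested genes. The difference between the hairpins was not tested, and the Suv39h1 transcript was reduced less than that of Suv39h2.

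**Figure D2:**
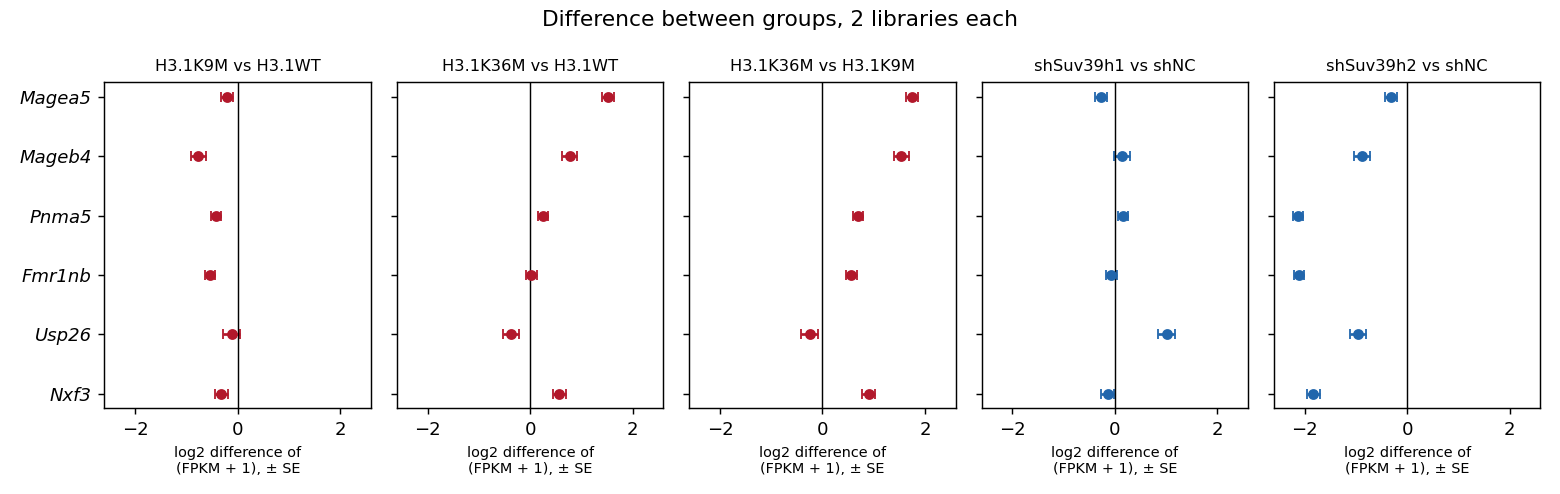
Log2 difference of FPKM + 1 between groups (horizontal axis, points) with its standard error from limma (bars) for the 6 genes, 1 panel for each of 5 comparisons, the group named first minus the group named second. All 6 points are left of 0 for shSuv39h2 against shNC, with Pnma5 and Fmr1nb beyond -2, and 5 of 6 are right of 0 for H3.1K36M against H3.1K9M.

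Over the 12 libraries the likeness of the genes depended on the measure. Pnma5, Fmr1nb and Nxf3 correlated with each other at Pearson r of 0.94 to 0.97 on the log2 scale, with Spearman rho of 0.68 to 0.82. By rank the closest pair was Mageb4 and Pnma5, at rho 0.97 (r 0.80), followed by Magea5 and Nxf3 at 0.86 (r 0.60) and Mageb4 and Nxf3 at 0.83 (r 0.87). Magea5 correlated with Usp26 at 0.19 (rho 0.03) and with Fmr1nb at 0.36 (rho 0.72), and its highest Pearson value was 0.80 with Mageb4 (rho 0.75). These values describe 12 libraries that share their groups, and the 2 low shSuv39h2 libraries weigh on many of them. The Pearson values of Magea5 rest largely on its 2 high H3.1K36M libraries, since it was near 0 elsewhere. Among the other tested genes, RIKEN, predicted and small RNA genes not named, Pnma5 was most like Pnma3 (r = 0.989, rho = 0.958), Xlr3a (0.977, 0.916) and Srpr (0.962, 0.832). Nxf3 was most like Chfr (0.980, 0.846), Xlr3a (0.974, 0.790) and Xlr3b (0.969, 0.951). Mageb4 was most like Aurkc (0.974, 0.951), Tbc1d10a (0.968, 0.951) and Rhox13 (0.965, 0.958). Magea5 was most like Rhox2h (0.987, 0.832), Rhox2b (0.985, 0.793) and Xlr5b (0.983, 0.768). Fmr1nb was most like Snf8 (0.979, 0.706), Lin7c (0.969, 0.797) and Phb (0.968, 0.580), and Usp26 most like Igsf10 (0.953, 0.853), Pfas (0.943, 0.769) and Tro (0.942, 0.916). All 3 genes most like Fmr1nb and 2 of the 3 most like Usp26 lie on autosomes, and X-linked Xlr or Rhox genes were among those of the other 4.

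The genes that lie beside the 6 on chromosome X were compared in the same way, taking the 2 nearest with a value on each side. Of 24 such neighbours 15 were tested. With the Suv39h2 hairpin 2 of them fell and 2 rose, with a median log2 difference of -0.02. Of all tested genes 4.69% fell and 5.35% rose. Both that fell lie on the same side of Pnma5. Pnma3, another PNMA gene 27.7 kb away, fell to 0.438 and 0.463 FPKM in shSuv39h2, against 2.51 and 2.15 FPKM in shNC (log2 difference -1.20, SE 0.105, limma adjusted p = 0.000359). Xlr4a, a lymphocyte-regulated family gene 37.2 kb away, had a mean of 0.331 FPKM in shSuv39h2 and 2.51 FPKM in shNC (limma adjusted p = 0.00269). Zfp185, 2.4 kb to the other side of Pnma5, overlapped between the groups, with a log2 difference of -0.17 (SE 0.124).

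Next to the other genes no neighbour was called lower with the Suv39h2 hairpin. Magea8, Gm41 and 1700080O16Rik had shNC means of 0.064, 0.098 and 0.095 FPKM, so near 0 that a fall could hardly be called. Fmr1, which encodes an RNA-binding regulator of translation, lies 43.9 kb from Fmr1nb and stood at 21.5 and 23.1 FPKM in shSuv39h2, against 19.4 and 18.7 FPKM in shNC. Its log2 difference of 0.22 (SE 0.083) did not pass (limma adjusted p = 0.132). Bex2, 3.9 kb from Nxf3, had a log2 difference of 0.16 (SE 0.079). Nr0b1, a nuclear receptor gene of stem cells beside Mageb4, rose to a mean of 52.9 FPKM in shSuv39h2, against 34.4 FPKM in shNC (limma adjusted p = 0.0261), and Arxes1 beside Nxf3 rose 1.55-fold (limma adjusted p = 0.0158). In H3.1K36M, Magea8 beside Magea5, Gm41 beside Mageb4 and 1700080O16Rik beside Usp26 were the neighbours called higher than in H3.1WT. These 3 reached 1 FPKM in the H3.1K36M libraries alone, so they were tested only because they were high there, and the calls are a description. Gm41 stood at 1.53 and 1.36 FPKM in H3.1K36M, against 0.114 and 0.235 FPKM in H3.1WT.

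**Figure D3:**
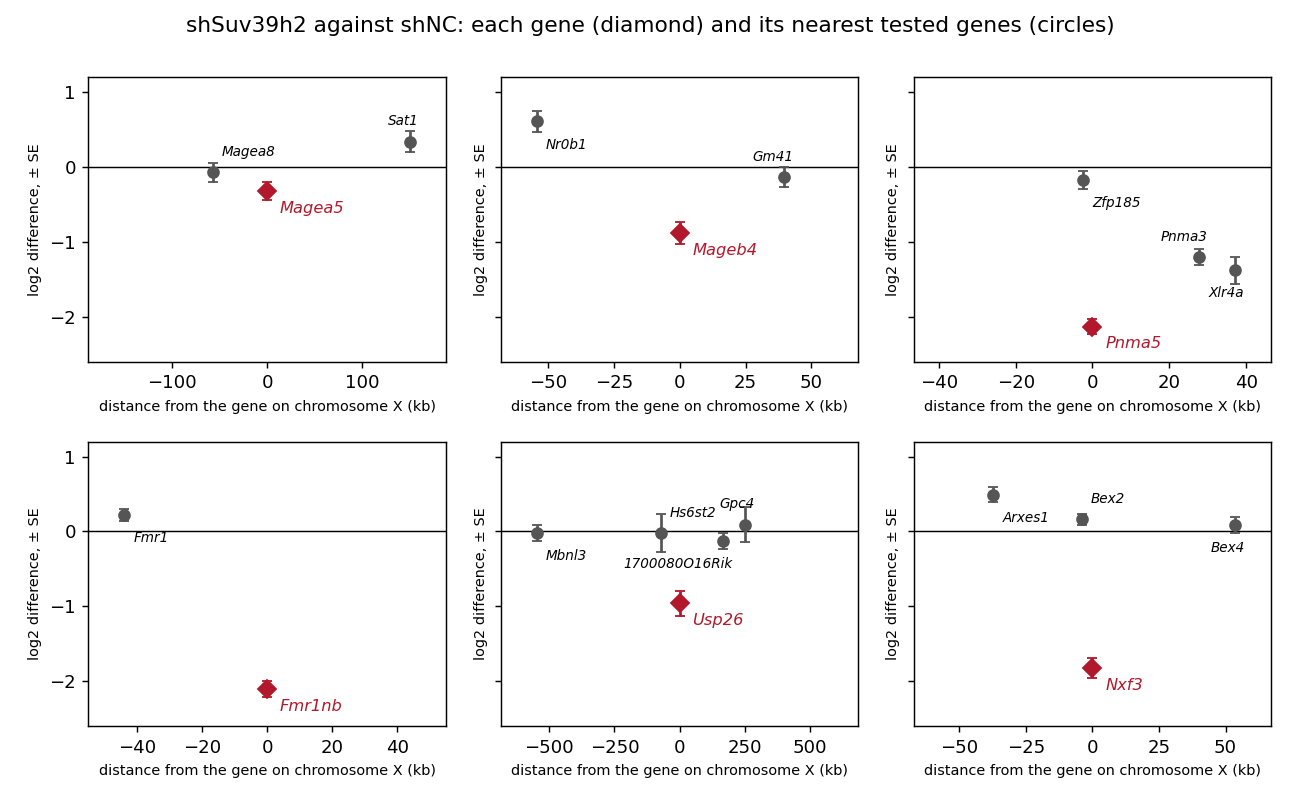
Log2 difference of FPKM + 1 between shSuv39h2 and shNC with its standard error (vertical axis) against distance on chromosome X in kb (horizontal axis, from the gene's edge), for each of the 6 genes (diamond at 0) and its nearest tested genes (circles). Pnma3 and Xlr4a lie low beside Pnma5, while the circles near the other 5 genes lie between -0.13 and 0.61.

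Relatives of the 6 genes were taken from lists of type I and type II MAGE genes, the PNMA family, Nxf and Usp genes with the Fmr1 family, and other X-linked testis genes. Of 130 symbols, some of them older names, 86 had a value and 34 were tested. The lists were chosen with earlier results of these data known, so the shares given here are a description. With the Suv39h2 hairpin 7 of 34 fell and 1 rose, shares of 20.59% and 2.94%, against 4.69% and 5.35% of all tested genes. Among the 7 is Magea4, tested only because its H3.1K36M libraries reached 1 FPKM. The median log2 difference was -0.05. In H3.1K36M against H3.1WT 6 were called higher and none lower, where 3.1% of all tested genes were called higher, with a median of 0.06. Of these 6, Magea4 and Magea8 were tested only because their H3.1K36M libraries reached 1 FPKM, so the share is not set against that of all genes. In H3.1K9M against H3.1WT 2 fell and none rose, 5.88% against 0.290%. With the Suv39h1 hairpin none was called by limma, and 10 of 34 had an unadjusted p under 0.05, as did 10.6% of all tested genes. H3.1K36M against H3.1K9M gave 9 higher and none lower, where 5.57% of all tested genes were called higher and 2.67% lower. Magea4 and Magea8 are among the 9, so this count is not measured against these shares. Leaving out libraries moved these counts: for shSuv39h2 there were 5 without shNC replicate 1 and 4 without either shSuv39h2 library, and for H3.1K36M against H3.1WT there were 3 without either H3.1WT library and 1 without either H3.1K36M library. H3.1K36M against H3.1K9M gave 3 without either H3.1K36M library and 11 without H3.1K9M replicate 2, and H3.1K9M against H3.1WT gave 1 and 0 without H3.1WT replicates 1 and 2 and 5 without H3.1K9M replicate 2.

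The type I MAGE genes divided. Of 14 with a value 3 were at 0 in all libraries, and 11 never reached 1 FPKM. Magea genes are closely similar copies and the annotated span of Magea2 encloses Magea5, so reads shared between copies leave each single value uncertain. In 6 of the 7 Magea genes with a value besides Magea5, both H3.1K36M libraries were above every other library. The share of all genes with this order was not computed. Magea2, Magea3, Magea6 and Magea10 stayed under 1 FPKM throughout. With reads possibly shared, the 6 are a description and not separate observations. Like Magea5, Magea8 and Magea4 passed the filter only through their H3.1K36M libraries, so their levels there are a description. Magea8 had 2.41 and 2.34 FPKM in H3.1K36M, against 0.349 and 0.0825 FPKM in H3.1WT. Magea4 had 1.180 and 1.124 FPKM in H3.1K36M, against 0.206 and 0.370 FPKM in H3.1WT. In shSuv39h2 it was listed at 0 in both libraries, against 0.398 and 0.308 FPKM in shNC (limma adjusted p = 0.0454).

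Mageb16, a type I MAGE gene at a level like that of Pnma5, did not share its difference with the Suv39h2 hairpin. It stood at 16.5 and 19.0 FPKM in shSuv39h2, against 17.9 and 19.5 FPKM in shNC, and overlapped. In H3.1K36M it had 26.05 and 25.99 FPKM, and in H3.1K9M 15.7 and 16.2 FPKM, a difference that passed (limma adjusted p = 0.00153). The type II MAGE genes are expressed in many tissues. All 9 with a value were tested, and none was called by limma in 4 of the 5 comparisons. In each of these 4, 2 or 3 had an unadjusted p under 0.05, as did 10.6% to 23.2% of all tested genes. With the Suv39h2 hairpin Mageh1 rose to 9.52 and 9.47 FPKM in shSuv39h2, against 5.35 and 5.67 FPKM in shNC (limma adjusted p = 0.00721).

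In the PNMA family 2 of 7 tested relatives fell with the Suv39h2 hairpin, Pnma3 and Zcchc12, where 4.69% of all tested genes fell. Zcchc12, a zinc finger member, had a mean of 0.866 FPKM in shSuv39h2 and 1.58 FPKM in shNC (log2 difference -0.47, SE 0.121, limma adjusted p = 0.0406). The family did not move together: its median was 0.24, and Moap1 and Pnmal2 lay 2.13-fold and 1.80-fold above shNC without overlap, with limma adjusted p of 0.0742 and 0.071 that did not pass. None of the 7 tested genes among the relatives of Nxf3 and Usp26 and the Fmr1 family was called in any comparison by limma. With the Suv39h2 hairpin 2 had an unadjusted p under 0.05, as did 25.8% of all tested genes, and none had in the other comparisons. Nxf1, the general mRNA export receptor, stood at 72.0 and 76.6 FPKM in shSuv39h2, against 61.8 and 64.7 FPKM in shNC.

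Among the other X-linked testis genes 4 of 8 tested fell with the Suv39h2 hairpin, where 4.69% of all tested genes fell. In H3.1K36M against H3.1WT 4 of the 8 rose, where 3.1% of all tested genes rose. This list was chosen with earlier results of these data known, so the counts are a description. H2bfm, a histone H2B variant gene, had 0.252 and 0.236 FPKM in shSuv39h2, against 1.15 and 0.933 FPKM in shNC (limma adjusted p = 0.00889). It also rose in H3.1K36M, to 3.56 and 3.20 FPKM (limma adjusted p = 0.00576), and fell in H3.1K9M, to 0.206 and 0.0380 FPKM (limma adjusted p = 0.016), against 1.59 and 1.21 FPKM in H3.1WT. Tsx fell to a mean of 2.07 FPKM in shSuv39h2, against 5.04 FPKM in shNC (limma adjusted p = 0.0036). Tktl1, a transketolase-like gene, fell to a mean of 0.315 FPKM in shSuv39h2, against 1.51 FPKM in shNC (limma adjusted p = 0.00313). The 8 genes of this list that were tested are those with at least 1 FPKM in 2 libraries, out of 44 with a value, and 14 of the 44 were at 0 throughout.

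Markers of other cells were read beside these values, since in bulk RNA fewer cells of a type and less RNA per cell cannot be told apart. The summed level of 11 markers of 2-cell-like cells, a rare state of stem cell cultures, differed in the same direction as most of the 6 genes in H3.1K36M, H3.1K9M and shSuv39h2. The sum was 59.7 to 60.8 FPKM in H3.1K36M, 9.16 to 13.7 in H3.1K9M and 31.5 to 34.8 in H3.1WT. It was 17.0 to 20.9 FPKM in shSuv39h1, 2.99 to 3.74 in shSuv39h2 and 25.3 to 39.0 in shNC. Of the 9 tested markers 2 were called higher in H3.1K36M than in H3.1WT, where 3.1% of all tested genes were. In H3.1K9M 4 were called lower than in H3.1WT, where 0.290% of all tested genes were. All 9 tested markers fell with the Suv39h2 hairpin, where 4.69% of all tested genes did, and none was at 0 throughout. Their part in the differences of the 6 genes was not tested.

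The 14 fibroblast feeder markers did not follow the 6 genes with the Suv39h2 hairpin. Their sum was 1010 to 1260 FPKM in shSuv39h2 and 925 to 1200 FPKM in shNC. Of 13 tested 1, Thy1, fell, where 4.69% of all tested genes did. The sum of the 14 feeder markers was 1480 to 1530 FPKM in H3.1K36M, 1180 to 2180 in H3.1K9M and 801 to 1260 in H3.1WT. In H3.1K36M against H3.1WT 3 of 13, Col3a1, Col6a2 and Postn, rose, where 3.1% of all tested genes did. The embryonic stem cell markers summed to 4960 to 5160 FPKM in shSuv39h2 and 4340 to 4680 FPKM in shNC. They summed to 4450 to 4470 FPKM in H3.1K36M, 3160 to 4080 in H3.1K9M and 4090 to 4550 in H3.1WT. Esrrb, Klf4, Nanog and Zfp42, 4 of the 8, were called higher in H3.1K36M than in H3.1K9M, where 5.57% of tested genes were. Pou5f1 and Tdgf1 had lower means in H3.1K36M, 634 and 257.8 FPKM, than in H3.1K9M, 680 and 330 FPKM, and were not called. Nanog rose 1.96-fold in H3.1K36M against H3.1WT (limma adjusted p = 0.0129). With the Suv39h2 hairpin Klf4 and Pou5f1 were called higher (limma adjusted p = 0.00996 and 0.0135), where 5.35% of tested genes were. The part of these markers in the differences of the 6 genes was not tested.

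**Figure D4:**
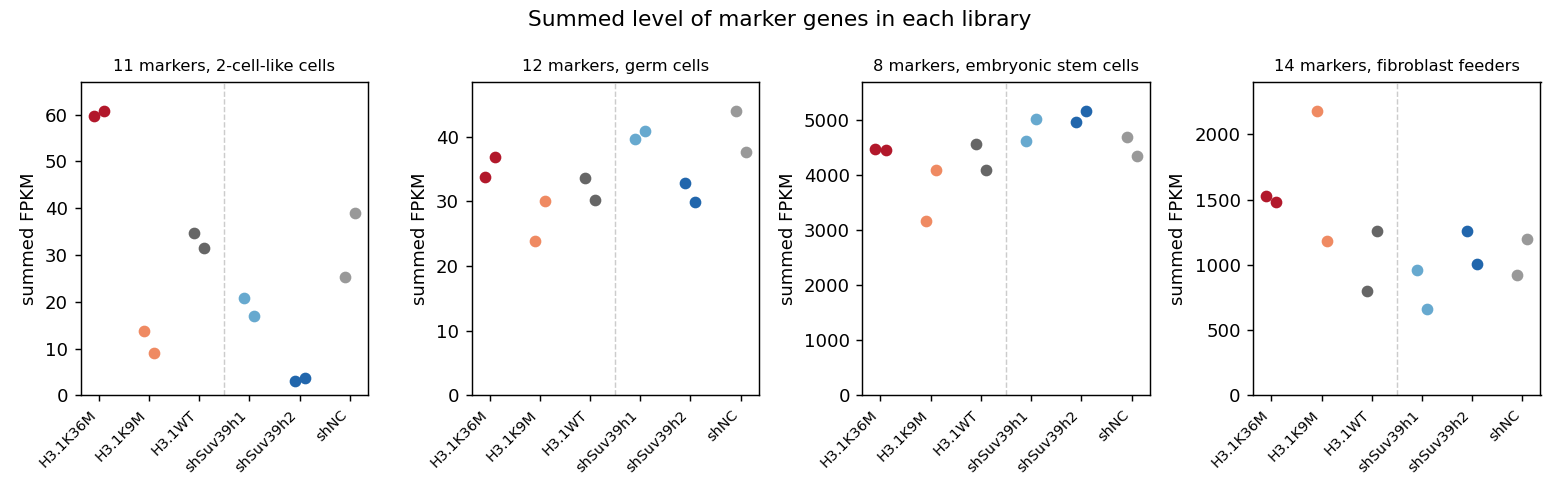
Summed FPKM (vertical axis, from 0) of 4 marker lists in each of the 12 libraries (points), by group along the horizontal axis with the arms divided by a dashed line. The markers of 2-cell-like cells are lowest in shSuv39h2, at 2.99 and 3.74, and highest in H3.1K36M, at 59.7 and 60.8, while feeder markers in shSuv39h2 overlap those in shNC.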

How the data were processed

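The authors deposited 1 FPKM value per gene and library, in 12 files of 23355 genes, of which 23354 are shared. The unit is inferred from the values. TopHat2 2.0.13, Cuffdiff 2.2.1 and mm10 are named in the submitters' processing notes, with the annotation, counting and scaling not given in the sources used here.

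Here limma 3.58.1 in R 4.3.3 was fitted to log2(FPKM + 1) in 1 model over all 12 libraries with 6 group means, 6 residual and 3.66 prior degrees of freedom (trend). Tested genes (13109) reached 1 FPKM in 2 or more libraries. p-values are two-sided and adjusted by Benjamini-Hochberg over all tested genes, with a threshold of 0.05. The steps were tested on simulated data. Depth was the number of fragments that made low values of single-transcript genes whole within 0.05, which 24.3 to 30.6% were, where chance gives 10%. Fragments of a gene assume its longest GENCODE transcript.

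The 6 genes, the lists and the comparisons were chosen with earlier results of these data known. Named besides the 6 are Suv39h1, Suv39h2, called relatives (at most 6 a list, RIKEN and predicted genes only counted) or those at 10 FPKM, neighbours, and for each the 3 genes of highest Pearson r, by the same exception. Alternatives were a pseudocount of 0.1, no filter, quantile or median-of-ratios scaling, a replicate block and leaving out each library.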

Additional observations from a re-analysis of the deposited data

How the results depend on the processing

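Of 30 differences of the 6 genes, 27 did not change sign under the alternatives that gave a value. Mageb4 in shSuv39h1 came to 0 without shSuv39h1 replicate 2, and Magea5 in H3.1K36M has no value without either H3.1K36M library, since it then misses the filter. The other 3 were Usp26 in H3.1K9M against H3.1WT (-0.39 to 0.16) and in H3.1K36M against H3.1K9M (-0.53 to 0.02, called lower without H3.1K9M replicate 1), and Fmr1nb in H3.1K36M against H3.1WT (-0.06 to 0.09). A pseudocount of 0.1 gave 1 of the 6 genes and 3 relatives called in H3.1K36M against H3.1WT, and 11 genes called in all for shSuv39h1. With no filter 12 genes were called in all for H3.1K9M, and 11 and 15 relatives for H3.1K36M against H3.1WT and against H3.1K9M. No total count of the 6 genes or their relatives moved by over 1.5 times under either scaling. The relatives called in shSuv39h2 were 3 higher and 6 lower after quantile normalization, against 1 higher and 7 lower. Of these, 6 genes were called both ways of scaling. Values near 0, above all those of Magea5, are limited by depth. Rescaling shifted the balance of calls over all genes: higher and lower calls were 406 and 228 in H3.1K36M against H3.1WT, and 317 and 273 after quantile normalization; 730 and 350 in H3.1K36M against H3.1K9M, and 542 and 453 after median-of-ratios scaling; 11 and 8 in shSuv39h1, and 5 and 9 after median-of-ratios scaling; 701 and 615 in shSuv39h2, and 547 and 722. The cause of these changes was not tested.

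Leaving out each library in turn leaves 1 library in a group, which is then assumed to vary like the others. The 6 genes then gave 0 to 3 calls in H3.1K9M and 0 to 1 in H3.1K36M against H3.1WT, 2 to 6 in H3.1K36M against H3.1K9M, 0 to 0 in shSuv39h1 and 3 to 5 in shSuv39h2, with 3 only without shSuv39h2 replicate 1. Relatives gave 0 to 5, 1 to 3, 3 to 11, 0 to 0 and 4 to 7 in the same order. All genes gave 2 to 696, 58 to 200, 209 to 1422, 0 to 18 and 358 to 1558.

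Same-numbered libraries share only a number: their deviations correlated between -0.384 and 0.383 over genes. With the replicate block 10 genes were called in all for shSuv39h1, against 19 without it. The block gave 2 of the 6 genes called in H3.1K36M against H3.1WT, against 3, and 6 relatives in shSuv39h2, against 8, and it changed no other count of the 6 genes or their relatives. With the numbers of shSuv39h1 crossed, added after seeing the data, the block gave 8, and with those of H3.1K9M crossed it gave 46 against H3.1WT, where 41 were called without a block.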

Other observations

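Genes of germ cells outside the X-linked families were not uniformly lower with the Suv39h2 hairpin. Of 12 germ cell markers 6 were tested, and 2 fell, where 4.69% of all tested genes fell. Dazl, a germ cell RNA-binding protein gene, stood at 1.71 and 1.82 FPKM in shSuv39h2, against 4.23 and 5.86 FPKM in shNC (log2 difference -1.12, SE 0.144, limma adjusted p = 0.00256). Zp3, an egg coat gene, had a mean of 3.65 FPKM in shSuv39h2 and 6.12 FPKM in shNC (limma adjusted p = 0.0279). Ddx4, a germ cell helicase gene, had 9.67 and 7.93 FPKM in shSuv39h2, against 11.03 and 8.24 FPKM in shNC, and the synaptonemal complex gene Sycp3 had 9.40 and 7.12 FPKM in shSuv39h2, against 10.0 and 5.77 FPKM in shNC. Both overlapped between the groups. The remaining tested markers, Stra8 and Sycp1, lay below shNC without overlap and were not called. Stra8 had 6.1 and 5.67 FPKM in shSuv39h2, against 9.51 and 6.705 FPKM in shNC. Sycp1 had 2.257 and 2.263 FPKM in shSuv39h2, against 2.403 and 2.778 FPKM in shNC.

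On chromosome X without the 6 genes, 44 of 438 tested genes fell and 20 rose with the Suv39h2 hairpin, shares of 10.05% and 4.57%. On the autosomes 528 of 11869 fell and 633 rose, shares of 4.45% and 5.33%. In H3.1K36M against H3.1WT 46 of the 438 rose and 10 fell, and on the autosomes 333 rose and 202 fell. The median log2 difference on chromosome X was 0.01 with the Suv39h2 hairpin and 0.09 in H3.1K36M against H3.1WT.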
